A study of Mus musculus with 4 samples.

Results

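The clustered protocadherins are cell surface adhesion proteins encoded in 3 neighbouring gene clusters on mouse chromosome 18, Pcdha (alpha), Pcdhb (beta) and Pcdhg (gamma). DNA methylation of these clusters was measured by whole-genome bisulfite sequencing of hippocampal microglia, the resident macrophages of the brain. Members were taken by name, as every gene on chromosome 18 whose symbol starts with Pcdha, Pcdhb or Pcdhg, which gave 58 of the 33070 genes considered. There were 14 alpha, 22 beta and 22 gamma members, including Pcdhgb8, which RefSeq annotates as a pseudogene. All mice were Tmem119-tdTomato+/-, a genotype named for a microglial gene and a red fluorescent reporter, and all were sampled at postpartum week 3. There were 2 control and 2 FGR libraries; the series concerns intrauterine growth restriction, and the labels do not say how it was produced or how many animals stand behind a library. P-values therefore measure the spread between libraries, which may be technical.

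In the alpha and gamma clusters each member has its own large variable exon, which encodes the cadherin repeats, the membrane span and a short inner segment, and which is spliced to constant exons shared by all members of the cluster. Beta members lack such constant exons. In neurons most members are expressed in a seemingly random choice, cell by cell, from individual promoters, while the C-type members (Pcdhac1, Pcdhac2, Pcdhgc3, Pcdhgc4 and Pcdhgc5) are expressed more evenly. The resulting combinations act in homophilic recognition, through which neurites of 1 neuron tell self from non-self. Promoter methylation, the DNA methyltransferase Dnmt3b, the chromatin protein Smchd1 and the insulator protein CTCF are known to take part in this choice.

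The annotation bore out this layout. In build mm10 (GRCm38) the alpha cluster spanned chr18:36930285-37188897, the beta cluster chr18:37264998-37521419 and the gamma cluster chr18:37661775-37841873, lengths of 258.613, 256.422 and 180.099 kb. The 14 alpha members had 14 distinct starts at the low-coordinate side, while their other ends lay within 1240 bp of each other. The 22 gamma members likewise had 22 distinct starts and ends within 1384 bp. Beta members were separate genes of 2340 to 5271 bp. The first 2500 bp of each member from its low-coordinate end (the whole gene where shorter) were used as its variable exon window, and the 500 bp on both sides of that end as its promoter window. Alpha and gamma genes are nested, so only these windows tell members apart. The exon borders themselves were not at hand.

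Level means methylated reads over all reads at the CpGs of a region in 1 library, in percent. Over the 3 clusters, 7401 CpGs were listed in at least 1 library, and 572 of them (7.73%) in all 4, against 8.89% of autosomal CpGs. The libraries gave 20871 to 38765 CpG readings in the clusters at 3163 to 4923 CpGs, and FGR 2 was the deepest. Only cytosines with at least 5 reads are listed, so each library covers a different selection of CpGs. Levels were therefore also compared at the CpGs listed in all 4 libraries.

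All 3 clusters were methylated less than the rest of the genome, and at an intermediate level. The alpha cluster had 56.7% in control 1, 58.6% in control 2, 56.4% in FGR 1 and 57.4% in FGR 2. The beta cluster had 53.5%, 58.9%, 54.8% and 56.7% in the same order. The gamma cluster had 55.5%, 56.0%, 49.4% and 53.4%. FGR 1 was the lowest library in the gamma and alpha clusters, and control 1 in the beta cluster. All autosomes together ranged from 74.6% to 76.4%, so the 3 clusters lay below them by 18.4 ± 0.616, 19.6 ± 2.15 and 22.1 ± 2.27 points (alpha, beta, gamma; mean ± SD of the differences within a library, n = 4). The direction was the same in 4 of 4 libraries for every cluster, for which an exact two-sided sign-flip permutation test gives p = 0.13, the smallest it can give with 4 libraries. On the CpGs that all 4 libraries list, the clusters were also lower, by 19.5, 20.5 and 16.9 points.

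**Figure D1:**
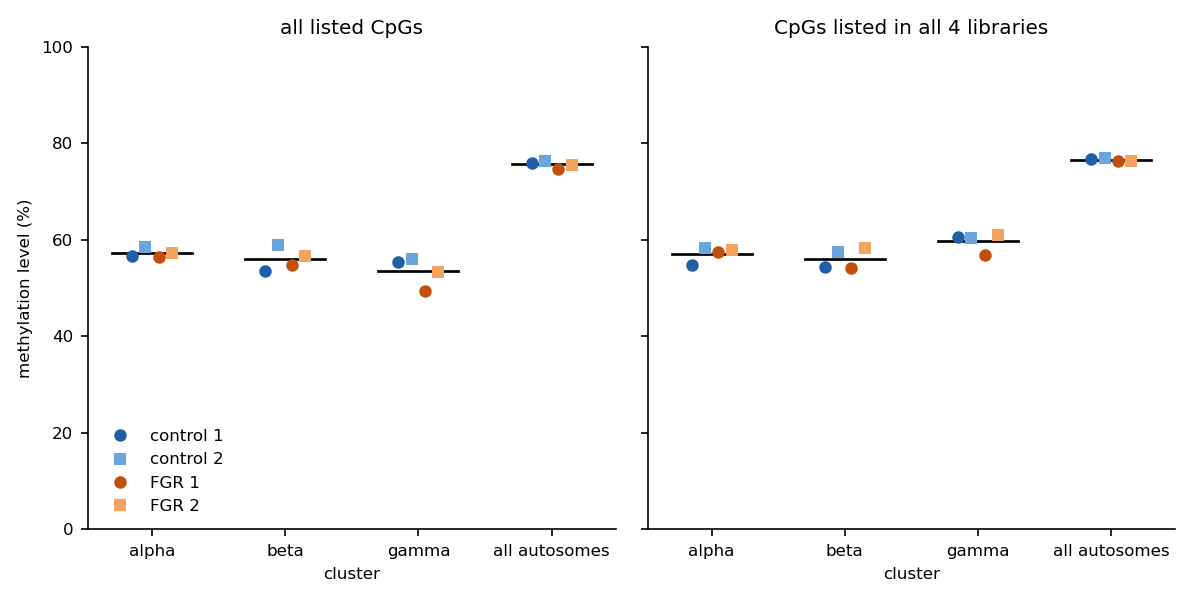
Methylation level (%) of the alpha, beta and gamma clusters and of all autosomes in each library (points; line, mean of 4), over all listed CpGs (left) and over CpGs listed in all 4 libraries (right). The clusters sit between 49.4% and 61.1% and the autosomes between 74.6% and 76.9%.

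The outer flanks of the clusters were methylated more, and the stretches between clusters lay in the middle. The 200 kb before the alpha cluster had 71.3 ± 2.73% (SD, n = 4) and the 200 kb after the gamma cluster 75.9 ± 1.32%. The stretch between alpha and beta had 60.3 ± 2.62%, and the stretch between beta and gamma, which holds Slc25a2 and Taf7, had 65.8 ± 2.06%.

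Which cluster was lowest depended on the CpGs compared. Over all listed CpGs gamma was below alpha by 3.69 ± 2.44 points (SD, n = 4), in 4 of 4 libraries (exact sign-flip p = 0.13, adjusted over 3 pairs 0.25). Beta was above gamma by 2.42 ± 3.16 points in 3 of 4 libraries, and alpha above beta by 1.27 ± 1.55 points in 3 of 4 (exact sign-flip p = 0.25 for each). At the CpGs listed in all 4 libraries gamma was instead the highest, 2.60 ± 2.69 points above alpha and 3.70 ± 1.71 points above beta. No order of the whole clusters can be given from these data.

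Levels differed with the position within each cluster, most in gamma and least in beta. In windows around the members' starts the level was 32.4 ± 3.79% in alpha, 40.7 ± 1.86% in beta and 21.8 ± 2.11% in gamma (SD, n = 4). Without the C-type members it was 33.1 ± 3.82% in alpha and 24.1 ± 3.11% in gamma. In the rest of the variable exon windows it was 56.9 ± 1.51%, 60.9 ± 3.31% and 53.3 ± 3.20%. Between members it was 63.3 ± 1.09%, 57.9 ± 2.09% and 72.7 ± 2.08%. The gamma cluster was therefore the most contrasted, with promoter windows 50.9 ± 0.612 points below the sequence between members, against 30.9 ± 3.92 points in alpha and 17.3 ± 0.845 points in beta. Each of these drops was seen in 4 of 4 libraries (exact sign-flip p = 0.13). The stretch after the last variable exon, which holds the constant exons, had 65.7 ± 1.73% in alpha and 64.5 ± 5.85% in gamma. At the CpGs listed in all 4 libraries this stretch had 68.4% to 71.4% in alpha (42 CpGs). In gamma it had 36.4% to 39.5% there, at only 8 CpGs.

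**Figure D2:**
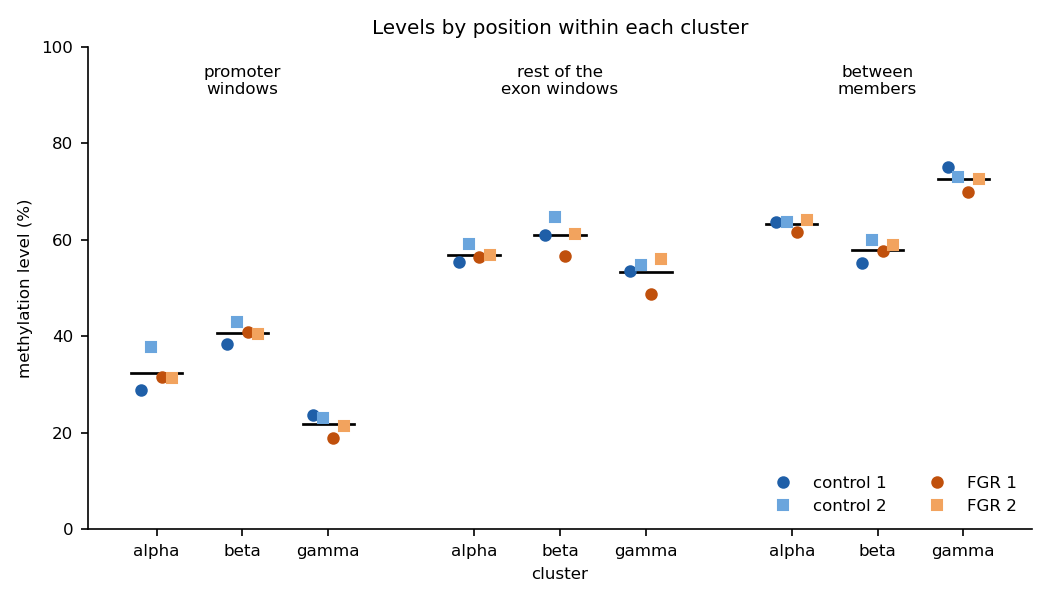
Methylation level (%) in each library (points; line, mean of 4) for promoter windows, the rest of the variable exon windows and the sequence between members of each cluster. Gamma has the lowest promoter windows (21.8%) and the highest sequence between members (72.7%).

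Promoter windows differed between the clusters in each library. Beta was above alpha by 5.12 to 9.45 points and above gamma by 14.7 to 21.9 points, and alpha was above gamma by 5.20 to 14.8 points. At the CpGs listed in all 4 libraries beta stayed above alpha and gamma in 4 of 4 libraries, by means of 12.7 and 9.46 points. The difference between alpha and gamma did not hold there: gamma was above alpha by a mean of 3.25 points, with 2 libraries in each direction (exact sign-flip p = 0.5). Between members, alpha minus gamma was -9.40 points over all listed CpGs and -18.71 points at the shared CpGs, with gamma the higher in 4 of 4 libraries in both.

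**Figure D3:**
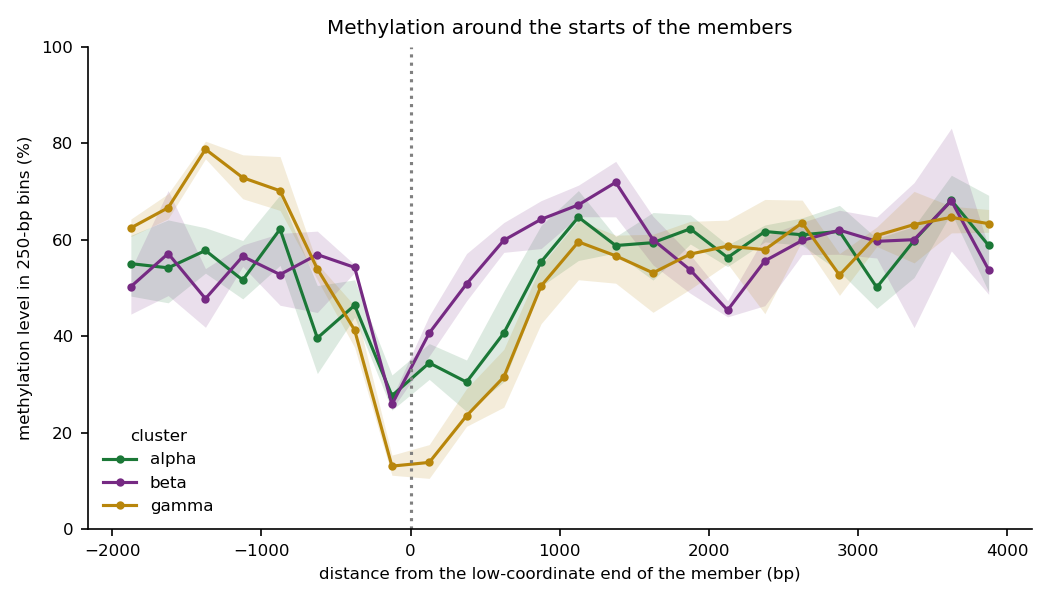
Methylation level (%) in bins of 250 bp by distance from the members' low-coordinate end, over all members of a cluster (line, mean of 4 libraries; band, lowest to highest library). All 3 clusters are lowest in the 250 bp before the end, and gamma reaches 13.1%.

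The dip had a common position and a cluster-specific width. In all 3 clusters the lowest bin of the profile was the 250 bp just before the start, with 27.7 ± 3.44% in alpha, 25.9 ± 0.992% in beta and 13.1 ± 1.99% in gamma (SD, n = 4). Beta had already risen to 50.9% at 250 to 499 bp after the start. Alpha had 30.5% and gamma 23.5% in that bin, and both passed 50% only at 750 to 999 bp. At 1000 to 1249 bp the clusters had 64.7%, 67.2% and 59.6%. They also differed away from the start: in the bin from -1500 to -1251 bp alpha had 57.8%, beta 47.8% and gamma 78.8%. Member by member, the first 750 bp had a median of 34.7% in alpha (11 measured), 51.4% in beta (9) and 25.4% in gamma (11). From 1000 bp after the start to the end of the window the medians were 61.1% (14), 62.2% (19) and 64.8% (20). The later stretch was the higher one in 28 of the 30 members measured in both. The exceptions were Pcdhb10 (51.3% then 48.0%) and Pcdhb17 (54.2% then 42.4%).

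Intermediate levels were also seen at single CpGs. Among CpGs with at least 10 reads, 52.2% to 61.1% of those in the alpha cluster had a level between 20 and 80%, over the 4 libraries. In beta the range was 56.0% to 67.6% and in gamma 41.5% to 49.0%. On the autosomes it was 34.6% to 35.6%, below every library of every cluster. CpGs at 80% or above made up 58.7% to 61.0% on the autosomes and 17.9% to 42.8% in the clusters. Single reads were not analysed here, so these levels do not tell whether alleles, cells or neighbouring CpGs differ. These libraries are also bulk DNA from many cells.

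Of the 58 members, 57 had a measured variable exon window (3 CpGs and 10 reads or more, library by library); Pcdhb9 did not. Their median level was 54.6%, and 55 of 57 lay between 20 and 80%. Of all 51830 windows of the same length tested at both gene ends, 55.3% did, and their median level was 74.5%. Such windows held a median of 26 listed CpGs, against 66 in the members, and what this adds was not tested. For promoter windows 43 members were measured, with medians of 29.2% in alpha (11 members), 39.3% in beta (16) and 22.7% in gamma (16), against 76.2% over all 20258 windows tested. Those windows lie at both ends of genes, so they are no set of promoters. Per library, 31 to 728 CpG readings stood behind an exon window and 15 to 377 behind a promoter window. The median width of Wilson's 95% interval was 13.2 points for an exon window and 19.5 points for a promoter window, for counting error only.

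**Figure D4:**
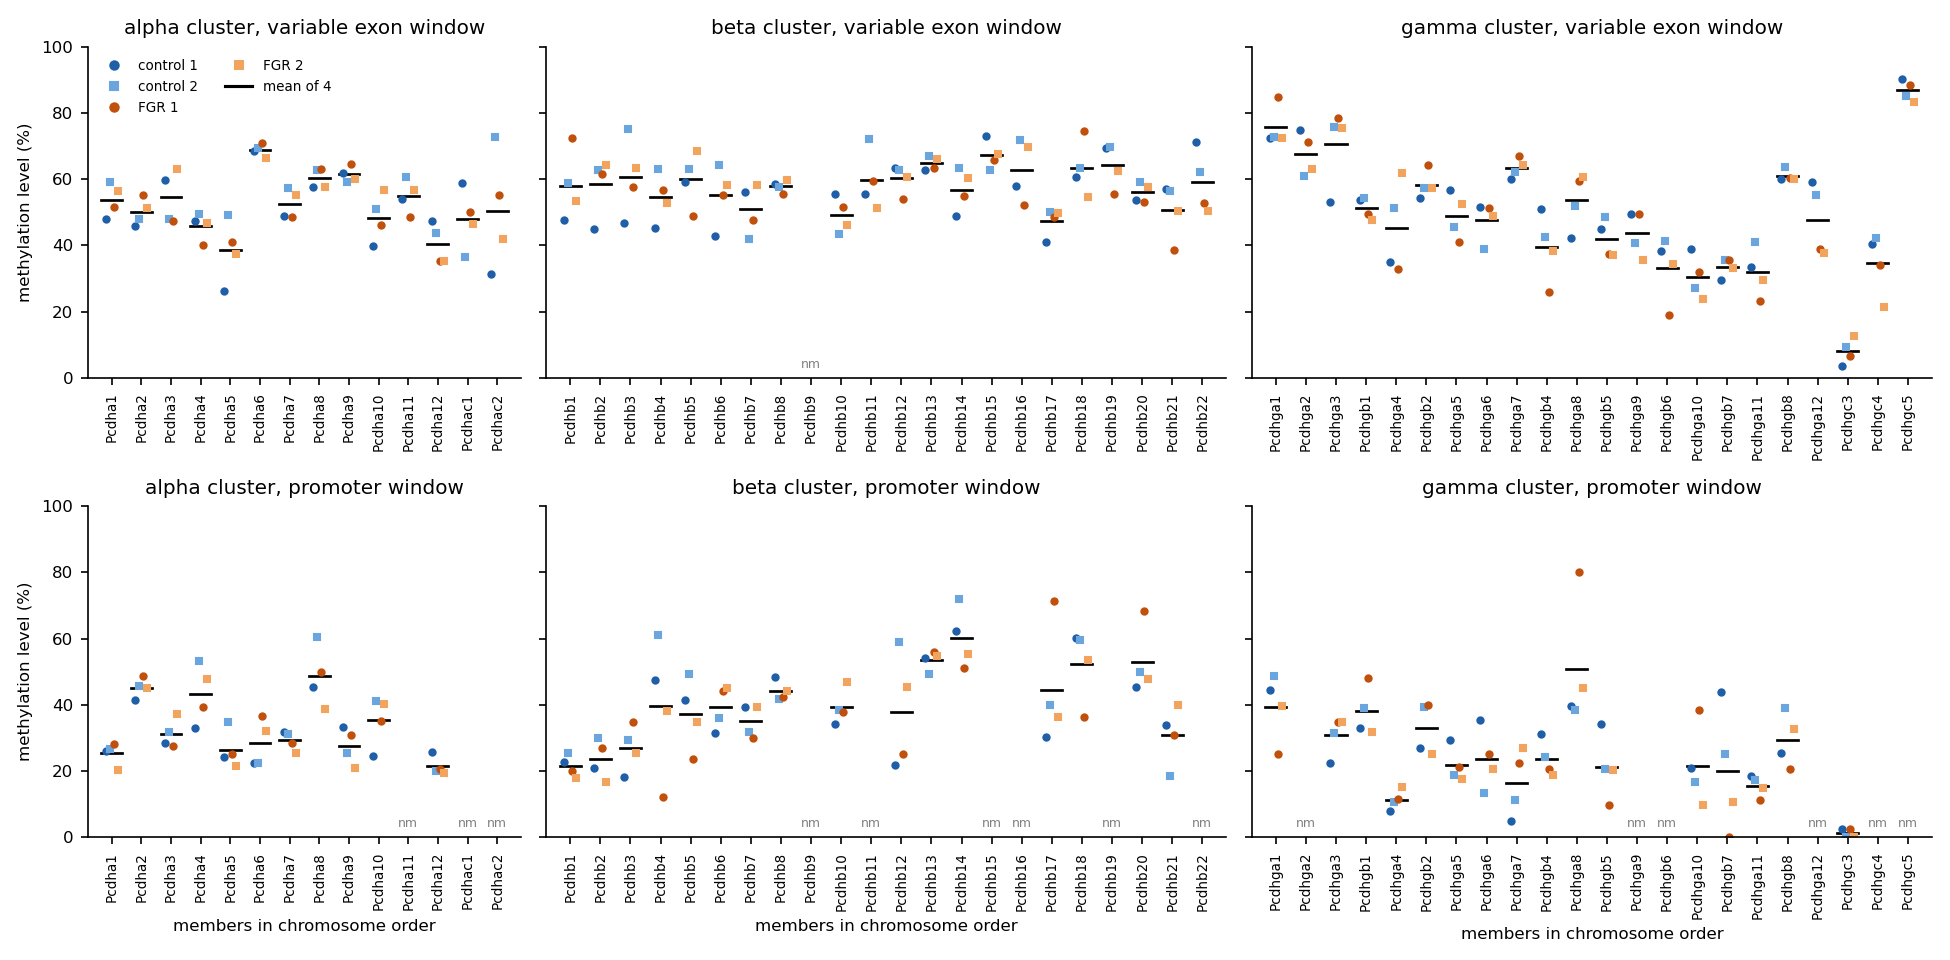
Methylation level (%) of the variable exon window (top) and promoter window (bottom) of each member in chromosome order, in each library (points; line, mean of 4; nm, not measured). In the exon windows beta members lie close together, while gamma members run from 8.02% (Pcdhgc3) to 86.9% (Pcdhgc5).

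Alpha members were spread around a median exon level of 51.5%, from 38.6% to 68.9%. Pcdha6 was the highest, with 68.7% and 69.4% in the controls and 71.0% and 66.5% in FGR, a spread of less than 5 points over the libraries. Pcdha9 (61.5 ± 2.40%, SD, n = 4) and Pcdha8 (60.3 ± 3.12%) followed, and the 3 do not overlap with the lowest members in any library. Pcdha5 was the lowest, with 26.4% and 49.1% in the controls and 41.2% and 37.5% in FGR. Its neighbours in the order, Pcdha12 (40.4 ± 6.18%) and Pcdha4 (46.0 ± 3.96%), did not differ from it beyond this spread. Within alpha, exon and promoter levels were hardly related over the 11 members with both (r = 0.14, rho = 0.16): Pcdha6, the highest exon, had a promoter window of only 28.4 ± 7.10%. These members share libraries, so the correlations here and below describe them without a test.

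Beta members were the most alike in their exon windows, though not in their promoter windows. Their exon windows ranged from 47.4% to 67.3% with an SD over members of 5.32 points, while the median SD within a group was 4.72 points. The highest were Pcdhb15 (67.3 ± 4.38%, SD, n = 4), Pcdhb13 (64.9 ± 1.96%) and Pcdhb19 (64.3 ± 6.64%). The lowest were Pcdhb17 (47.4 ± 4.30%), Pcdhb10 (49.2 ± 5.44%) and Pcdhb21 (50.6 ± 8.57%). The order of beta members was not repeated between libraries: over 21 members control 1 and control 2 had r = 0.13, and FGR 1 and FGR 2 had r = 0.15. Promoter windows of beta members told them apart better, with r = 0.67 between the controls and 0.46 between the FGR libraries over 16 members. They rose along the chromosome (r = 0.65, rho = 0.64, n = 16), from 21.6% at Pcdhb1 and 23.6% at Pcdhb2 to 60.2% at Pcdhb14 and 52.8% at Pcdhb20. Pcdhb1, the first beta gene, had promoter levels of 22.8%, 25.5%, 20% and 18.02%, the lowest mean of the beta promoters measured, and an exon level of 58.1 ± 10.5% near the beta median of 58.5%.

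Gamma members differed most in their exon windows, and their order there was repeated from library to library. The SD over the 22 exon windows was 17.8 points, against 8.10 in alpha and 5.32 in beta. Without the C-type members it was 13.5 points in gamma and 8.69 in alpha. Over the 22 members, C-type ones included, control 1 and control 2 had r = 0.86, and FGR 1 and FGR 2 had r = 0.89. In alpha the matching values were 0.05 and 0.67 over 14 members. Exon and promoter levels also moved together over the 16 gamma members with both (r = 0.67, rho = 0.66). The 2 windows share the first 500 bp of a member, so part of this relation is of a stretch with itself. The 16 include Pcdhgc3, the lowest gamma member in both windows.

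Along the gamma cluster the exon level was high in the first members and lower in most later members of the A and B types. Pcdhga1 had 75.7 ± 6.09% (SD, n = 4), Pcdhga2 67.6 ± 6.58% and Pcdhga3 70.8 ± 11.8%. Further along Pcdhgb6 had 33.3 ± 9.94%, Pcdhga10 30.5 ± 6.53%, Pcdhgb7 33.5 ± 2.83% and Pcdhga11 31.8 ± 7.47%. Over the 19 members without the C-type ones the level and the order along the chromosome had r = -0.66 and rho = -0.63, and within single libraries r ran from -0.50 (control 1) to -0.72 (FGR 2). The A type had r = -0.77 over 12 members and the B type r = -0.31 over 7. The last members of both types went against this order: the pseudogene Pcdhgb8 had 61.1 ± 1.78%, and Pcdhga12 had 47.7 ± 11.1%, near the gamma median of 47.7%. The number of CpGs listed in a window moved with the level too (r = -0.52, n = 19), and its part in the gradient was not tested. In alpha, without the C-type members, no such order was seen (r = -0.01, n = 12).

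The C-type members of gamma held both extremes of all 57 exon windows. Pcdhgc3 (exon window chr18:37806410-37808909) had 3.52%, 9.41%, 6.67% and 12.5% in control 1, control 2, FGR 1 and FGR 2. Its promoter window had 2.42% of 165 readings in control 1 and 2.55% of 157 in FGR 1. In control 2 it had 0 of 20, which allows up to 15%, and in FGR 2 0 of 204, which allows up to 1.47%. Low methylation thus ran through the whole Pcdhgc3 window, and even from 1000 bp onwards it had 11.6 ± 7.70%, against a median of 64.8% for gamma members in that stretch.

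Pcdhgc4 (chr18:37815079-37817578) was low only near its start. Its exon window had 40.5%, 42.2%, 34.2% and 21.5%, and from 1000 bp onwards it had 59.8 ± 12.4%. Its promoter window had 0.690% of 145 readings in control 1, 0 of 42 in control 2, 0 of 10 in FGR 1 and 0.806% of 124 in FGR 2. The zeros allow up to 7.14% and 30%, and the window did not pass the minimum of CpGs and reads. Pcdhgc5 (chr18:37819546-37822045), the last gamma member, was at the other extreme, with 90.3%, 85.2%, 88.6% and 83.3%. Control 1 and control 2 had only 31 and 54 readings there, against 184 and 186 in FGR.

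The C-type members of alpha lay near the middle of their cluster but varied between libraries. Pcdhac1 (chr18:37090136-37092635) had 59.0%, 36.5%, 50% and 46.4%, and Pcdhac2 (chr18:37143678-37146177) had 31.4%, 72.7%, 55.4% and 42.0%. Their means, 48.0% and 50.4%, were close to the median of the other alpha members, 53.2%. Few readings stood behind them in some libraries, 54 at the least for Pcdhac1 and 77 for Pcdhac2. The Pcdhac2 promoter window was too shallow to be measured, with 0% of 5 readings in control 1, 0% of 15 in FGR 1, 6.25% of 112 in FGR 2 and none listed in control 2. The 5 C-type members therefore spanned the range from 8.02% to 86.9%.

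FGR and control were close in the alpha and beta clusters as a whole and further apart in gamma. FGR minus control was -0.82 points in alpha, -0.41 in beta and -4.34 in gamma, with 57.7 ± 1.31% and 56.9 ± 0.708% (alpha), 56.2 ± 3.88% and 55.8 ± 1.35% (beta), and 55.7 ± 0.379% and 51.4 ± 2.84% (gamma) in control and FGR (SD, n = 2). Only in gamma did the groups not overlap (exact permutation p = 0.333). This is the smallest p that 2 against 2 libraries can give in such a permutation test, so no cluster difference could pass 0.05. Without FGR 1 the gamma difference was -2.33 points. By part of the gamma cluster, FGR minus control was -3.18 points in promoter windows and -1.80 in the rest of the variable exon windows. It was -2.70 points between members and -2.10 after the last variable exon. Each part thus differed by less than the whole gamma cluster. The share of readings in each part differed between libraries, and what this adds to the gamma difference was not tested. The alpha and beta differences changed sign without control 2 (0.11 and 2.33 points), and that of beta also without FGR 1 (0.55 points). The autosomes as a whole were lower in FGR too, by 1.05 points and without overlap. On the CpGs that all 4 libraries list, the gamma difference was -1.58 points, with FGR 2 (61.1%) above both controls (60.6% and 60.5%). There the alpha and beta differences had the other sign, 1.10 and 0.26 points. The difference in alpha was above that in gamma by 3.52 points over all listed CpGs (exact permutation p = 0.333 for the difference of differences). At the shared CpGs it was above by 2.68 points (exact permutation p = 0.667). The difference in beta was above that in gamma by 3.93 points over all listed CpGs and 1.84 points at the shared CpGs (exact permutation p = 0.333 for each). The difference in alpha minus that in beta was -0.41 and 0.84 points.

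No member passed the test between FGR and control. In the quasi-binomial model fitted across all windows, with limma's moderation, 0 of 57 exon windows and 0 of 43 promoter windows were called at an adjusted p under 0.05 and 10 points. The background was no higher, with 0.0% of 51830 exon-sized and 0.0% of 20258 promoter-sized windows called. At an unadjusted p under 0.05 there were 2 exon windows (Pcdhga12 and Pcdhga11; background 5.95%) and 3 promoter windows (Pcdha8, Pcdhga7 and Pcdhgb7; background 4.82%). By limma on log ratios of methylated to unmethylated reads there were 0 and 2. In 16 of 57 exon windows the groups did not overlap, against 33.4% of all windows. In 13 of 57 FGR was the lower without overlap, a share near the 19.1% of all windows. In 18 of 43 promoter windows they did not overlap, against 32.1%. Of the exon windows 32 of 57 were lower in FGR, near the 54.2% of all windows, with a median difference of -0.39 points against -0.75 points.

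The largest exon differences were in the gamma and beta clusters. Pcdhga12 had 59.1% and 55.3% in control and 38.8% and 37.6% in FGR, a difference of -18.98 points (adjusted p = 0.771, quasi-binomial with limma moderation). The 2 groups were far apart relative to their own spread, yet at the 28 CpGs listed in at least 1 library of each group the mean difference was -7.57 points. Pcdhb22 had 71.3% and 62.1% against 52.9% and 50.4% (-15.07 points; -8.93 at such CpGs). Pcdhgb4 had 51.0% and 42.5% against 25.9% and 38.4% (-14.59 points; -0.80 at such CpGs). Pcdhgc4 followed with -13.50 points (-1.07 at such CpGs). The value at such CpGs is a mean over CpGs and the other one a ratio of summed reads, so selection and weighting change together. Alternatives moved these differences both ways. The Pcdhga12 difference was -11.95 points in a window of 3000 bp and -20.86 points without control 2. The Pcdhgb4 difference was -8.31 points without FGR 1 and -20.86 points without FGR 2. The Pcdhgc4 difference was -6.37 points in a window of 2000 bp and -23.63 points in a window of 3000 bp. It was -7.15 points without FGR 2 and -19.86 points without FGR 1.

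The 4 largest rises were each smaller than the 4 largest falls. Pcdhga8 had 42.4% and 52.0% in control and 59.4% and 60.7% in FGR, a difference of 12.91 points that turned to -7.36 points at CpGs listed in both groups. Pcdhga3 had 53.3% and 75.8% against 78.4% and 75.6% (12.45 points; 7.86 at such CpGs), where control 1 alone stood low. Its difference was 1.16 points without control 1 and 23.75 points without control 2. At CpGs listed in all 4 libraries it was -4.60 points, and that of Pcdhga8 was -16.19 points. Pcdhb1 (9.67 points, 3.06 at CpGs listed in both groups) overlapped between the groups, with 0.20 points without FGR 1 and 19.15 without FGR 2. So did Pcdhb2 (9.12 points, 0.06 at CpGs listed in both groups), with 0.21 points without control 1 and 18.03 without control 2. Pcdhga11, one of the lowest gamma exons, had 33.6% and 41.0% in control against 23.2% and 29.6% in FGR, -10.92 points over all listed CpGs and -10.59 points at the 70 CpGs listed in both groups (adjusted p = 0.840, quasi-binomial with limma moderation). It was -1.86 points at the CpGs listed in all 4 libraries and -7.20 points without control 2.

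In promoter windows the differences were wider and rested on fewer readings. Pcdhgb7 had 44.0% and 25% in control and 0% and 10.7% in FGR, a difference of -29.13 points. Its FGR 1 value was 0 of 33 readings, which allows up to 9.09%, and control 1 and control 2 had 25 and 16 readings. Pcdhb4 fell by 29.30 points between group means, with 47.6% and 61.0% against 12% and 38.0%, but was higher in FGR by 4.61 points at the 5 CpGs listed in both groups. Pcdhb5 had 41.4% and 49.4% against 23.6% and 34.9% (-16.18 points), and Pcdhb18 60.3% and 59.7% against 36.4% and 53.4% (-15.10 points). With 1000 bp on both sides these 2 differences were -7.30 and -1.47 points. Pcdhb5 had -4.29 points at CpGs listed in all 4 libraries, -10.53 points without FGR 1 and -21.83 points without FGR 2. Pcdhb18 had -6.56 points without FGR 1 and -23.65 points without FGR 2. The Pcdhb4 difference was -16.30 points without FGR 1 and -42.30 points without FGR 2. That of Pcdhgb7 was -18.49 points with 1000 bp on both sides and -38.63 points without control 2.

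The rises of promoter windows included Pcdhga8 and Pcdhga7. Pcdhga8 had 39.7% and 38.5% in control and 80% and 45.2% in FGR (23.51 points). The difference was 6.11 points without FGR 1 and 40.91 points without FGR 2. It was 4.17 points at CpGs listed in both groups and 2.63 points at those listed in all 4 libraries. Pcdhb17 had 30.3% and 39.9% against 71.4% and 36.2% (18.71 points), again with FGR 1 apart and with only 21 readings there. Its difference was 1.08 points without FGR 1 and 36.33 points without FGR 2. Pcdhga7 had 4.88% and 11.1% against 22.5% and 27.0% (16.75 points; 14.53 at CpGs listed in both groups), and Pcdha6 had 22.4% and 22.5% against 36.6% and 32.0% (11.85 points; 11.25). For these last members the groups did not overlap, while the adjusted p was 1 (quasi-binomial with limma moderation). The Pcdha6 difference was 1.5 points at CpGs listed in all 4 libraries. With 1000 bp on both sides it was 13.03 points, and that of Pcdhga7 was 9.02 points.

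**Figure D5:**
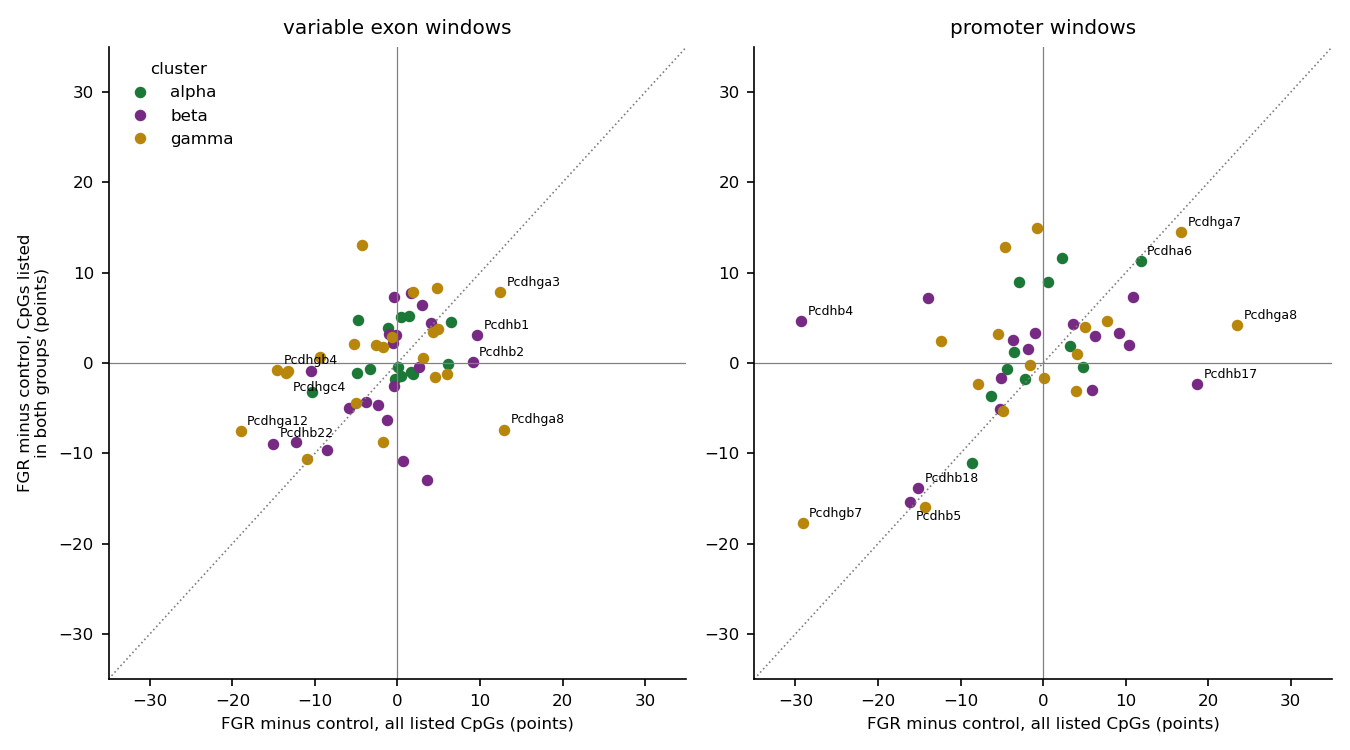
FGR minus control in percentage points for the variable exon windows (left) and promoter windows (right) of all measured members, over all listed CpGs (horizontal) and as the mean over CpGs listed in both groups (vertical); dotted line, equality. Several of the largest differences, such as Pcdhb4, Pcdhgb4 and Pcdhga8 exon, lie near 0 or across it on the vertical axis.

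Over all members the 2 ways of measuring had the same sign in 34 of 57 exon windows and 27 of 43 promoter windows. The median size of a difference was 4.03 points over all listed CpGs and 3.48 points at CpGs listed in both groups for exons, and 5.27 and 3.66 points for promoters. At CpGs listed in both groups 31 of 57 exon windows and 18 of 43 promoter windows were lower in FGR.

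Tiles of 1 kb gave no called difference in the clusters. Of the 257 tiles tested in the clusters 0 were called, against 124 of 550538 on the autosomes (0.0225%). At an unadjusted p under 0.05 there were 21 of 257, or 8.17%, against a background of 5.04%, made up of 4 in alpha, 10 in beta and 7 in gamma. By limma there were only 3 of 257, against 25626 of 550538, so the share above the background was not kept. In 91 tiles the groups did not overlap, 35.4% against 33.0%, and 126 tiles were lower in FGR, 49.0% against 51.8%. Gamma tiles were split, with 66.3% between 20 and 80% and 24.7% above 80%, while all 80 beta tiles lay between 20 and 80%.

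The tiles with the smallest p lay in or at the edge of exon windows. A tile in Pcdha4 (chr18:36954001-36955000) had 51.3% and 55.1% in control and 35% and 28.2% in FGR (-21.63 points, -21.07 at CpGs listed in both groups; adjusted p = 0.63, quasi-binomial with limma moderation). A tile that begins within the Pcdhgc5 window (chr18:37822001-37823000) had 43.7% and 17.6% against 68.6% and 51.2% (29.31 points). Its difference was 16.27 points without control 2 and 42.35 points without control 1. Tiles in Pcdhb12 (chr18:37436001-37437000, -31.79 points) and Pcdhb22 (chr18:37520001-37521000, -23.98 points) had both FGR libraries below both controls. At CpGs listed in both groups these differences were -21.07 and -24.61 points. Few readings stood behind some control values. The Pcdhb12 tile had 31 in control 1 and 18 in control 2, and the Pcdhb22 tile had 28 in control 1. A tile at the start of Pcdha8 (chr18:36992001-36993000) differed by -8.98 points with overlapping groups. Leaving out control 1, control 2, FGR 1 or FGR 2 gave -16.43, -1.54, -14.62 and -3.35 points there.

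Genes related to the clusters were measured only in part. Of 10 non-clustered protocadherins, single genes of the same family, 8 had a known start and 6 a measured window after it; 1 was higher and 5 lower in FGR and 0 were called. Their median level, 14.96%, was far below the 54.6% of the clustered members. Pcdh10 had 3.52% and 3.09% in control and 5.71% and 5.43% in FGR, and Pcdh7 had 1.18 ± 0.849% (SD, n = 4). The smallest p was that of Pcdh8, with 25.8% and 16.8% against 7.62% and 12.4% (-11.31 points, adjusted p = 0.919, quasi-binomial with limma moderation). Of 25 genes that act on or with the clusters, such as Ctcf, cohesin subunits, DNA methyltransferases and kinases bound by protocadherins, 13 were measured, 7 higher and 6 lower, with 0 called. Smchd1 had 22.2% and 46.7% in control and 13.5% and 14.3% in FGR (-20.56 points, adjusted p = 0.856), Stag1 -8.44 points, Abi1 4.84 points and Dnmt3b -8.07 points.

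The windows after the starts of microglial genes had little methylation. P2ry12 had 0%, 0%, 1.45% and 0%, Cx3cr1 8.16%, 0%, 0% and 1.71%, and Fcrls 13.2%, 5.56%, 9.30% and 9.76%, the 3 of 8 such markers measured. Markers of other brain cells had higher levels in the same window and differed between libraries. Syt1, a synaptic vesicle gene of neurons, had 57.6% and 79.4% in control and 20.9% and 47.0% in FGR, and Cnp, an oligodendrocyte gene, had 36.8% and 51.1% against 93.5% and 66.7%. Map2 (neurons) had 38.5 ± 21.2% and Slc1a3 (astrocytes) 32.7 ± 16.7% (SD, n = 4). Of 14 markers of other cell types 4 were measured, too few to compare cell makeup, and the part of other cells in the levels of the protocadherin clusters was not tested.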

How the data were processed

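Libraries were grouped by the labels. Genomic DNA was fragmented, bisulfite converted and sequenced, per the labels' protocols; trimming with Trim Galore 0.6.5, Bismark, methylKit 1.28.0 and the build mm10 appear in the submitters' processing notes. Bismark's version was not given in the sources used here, nor were the settings. The deposited coverage is a count of reads per cytosine and strand, per the file headers, with a minimum of 5. The deposited methylation values are percent of reads, per the file headers, and their product with the coverage was a whole number of reads within 0.02 for 100% of cytosines. The libraries list 7615146 to 13578464 cytosines.

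Strands were summed per CpG, and the most deeply covered 0.1% of CpGs per library were dropped (Python 3.11.15, numpy 2.4.6, pandas 2.3.3, scipy 1.17.1). Genes came from RefSeq's table of GRCm38.p6. Regions needed 3 CpGs and 10 reads in every library. Differences were tested with a quasi-binomial model on read counts, its overdispersion moderated by limma 3.58.1 (R 4.3.3), and adjusted by Benjamini-Hochberg over all windows of a kind; a call needed an adjusted p under 0.05 and 10 points. The prior came from regions with at least 10 methylated and 10 unmethylated reads. This restriction was added after the data were seen, because a first version that took the prior from all regions failed to recover changes in simulated promoter windows; the present one was tested on simulated data in the same way. Readings at several CpGs of 1 read are not independent, so intervals cover counting error only and can be too narrow.

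Named are the C-type members, Pcdhb1, the 3 highest and 3 lowest exon windows per cluster, the 4 largest rises and falls of exon and promoter windows, the 5 tiles and up to 4 related genes with the smallest p; others were chosen after their values were seen. Members and lists were chosen with earlier results of these data known. Alternatives were other CpG selections, window and tile sizes, stricter minimums, limma, a replicate block and leaving out each library. A planned description of promoter letters was not made.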

Additional observations from a re-analysis of the deposited data

How the results depend on the processing

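Counts of called members stayed at 0 for exon windows, promoter windows and tiles under every alternative run that kept all 4 libraries. Some of these runs could hardly call a member. At CpGs with at least 10 reads only 9 exon windows, 1 promoter window and 3 tiles of the clusters were tested. At CpGs listed in all 4 libraries 26, 18 and 83 were tested. Limma called 0 of all 51830 exon-sized windows, 20258 promoter-sized windows and 550538 tiles. The deviations of same-numbered libraries were not correlated (r = 0.02 over 57 exon windows). With 2 libraries per group this cannot tell whether the numbers pair them. The replicate block changed no call among the members. The signs of the cluster differences depended on the CpGs. FGR minus control became 1.10 points in alpha and 0.26 in beta at CpGs listed in all 4 libraries, and 0.48 and 0.46 at CpGs with at least 10 reads. Leaving out 1 library in turn gave -1.74 to 0.11 points in alpha and -3.16 to 2.33 in beta; alpha turned without control 2, and beta without control 2 or FGR 1. Gamma stayed lower in FGR, from -6.34 to -2.33 points, and was -9.74 at CpGs with at least 10 reads. Alpha minus gamma became -2.60 and beta minus gamma -3.70 at CpGs listed in all 4 libraries, and beta minus gamma -3.59 at CpGs with at least 10 reads. At CpGs listed in all 4 libraries the differences of the Pcdhb2, Pcdhga3 and Pcdhga8 exon windows became -3.34, -4.60 and -16.19 points. At CpGs listed in both groups, a view chosen after seeing the data, those of the Pcdhga8 exon window and the Pcdhb4 and Pcdhb17 promoter windows became -7.36, 4.61 and -2.33 points. The cause of these turns was not tested. Many members look alike in sequence, and how reads shared between them were placed was not tested. At this depth 15 of 58 members had no measured promoter window, and 2 had none with 1000 bp on both sides.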
